A study of Mus musculus with 3 samples.

Results

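The 10 genes described here carry antigen presentation by MHC class I: the heavy chain genes H2-K1 and H2-D1, the light chain gene B2m, the peptide transporter genes Tap1 and Tap2, the tapasin gene Tapbp, the transcriptional regulator gene Nlrc5, and the immunoproteasome subunit genes Psmb8, Psmb9 and Psmb10. They were taken by name, through their GENCODE M21 gene identifiers, from 55536 annotated mouse genes, and 10 of 10 were found. Their 72 annotated transcripts were taken from the 141862 transcripts of the same annotation. The cells were activated Treg, regulatory CD4 T cells that express Foxp3 and restrain immune responses. They were primary mouse cells, labelled male and 3 weeks of age, and their polyadenylated RNA was sequenced. There were 3 libraries in 1 group, given as technical replicates 1, 2 and 3 of 1 biological replicate, and they are called library 1, 2 and 3. The labels give the whole organism as the source of the cells and name no strain, genotype or mode of activation. Every SD below is therefore a spread between 3 libraries (n = 3), which may be technical, and no comparison between conditions exists.

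MHC class I molecules show peptides from a cell's own proteins to CD8 T cells and natural killer cells. Proteasomes cut proteins into peptides, TAP carries the peptides into the endoplasmic reticulum, tapasin and chaperones help load them, and a heavy chain with beta-2-microglobulin carries them to the surface. Interferon-gamma is known to raise most of these genes, to replace the catalytic subunits of the constitutive proteasome by those of the immunoproteasome, and to act through factors that include IRF1 and NLRC5, the last of which works at a set of conserved elements in class I promoters.

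The promoter stretches of the 2 heavy chain genes and of the light chain gene are shown because these genes held the highest levels of the 10, and because the same elements recur in them. All are reference sequence from RefSeq promoter windows of build GRCm38.p6, which run from 250 bases before to 50 bases after an annotated start. The windows matched 8 of the 10 genes. Windows for Nlrc5 and Tap2 are not used here. In the first set, capitals mark matches to GGGNNNNNCC, a pattern of NF-kappaB sites, which overlap each other where it matches on both strands or at neighbouring bases, and a match to AANNGAAA on either strand, a pattern of interferon-response elements. The H2-K1 stretch is chr17:34000429-34000458, minus strand, 111 to 82 bases before the first of its 2 RefSeq starts. The H2-D1 stretch is chr17:35262923-35262952, plus strand, 171 to 142 bases before the start. The B2m stretch is chr2:122147547-122147576, plus strand, 140 to 111 bases before the start.
H2-K1: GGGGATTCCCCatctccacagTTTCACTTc
H2-D1: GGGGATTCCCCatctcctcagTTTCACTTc
B2m: tgaAACTGAAAatGGGAAAGTCCCtttgta

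The H2-K1 and H2-D1 stretches were identical at 29 of 30 bases, while B2m held the patterns in the opposite order. GGGGATTCCCC, the 11 bases at which 2 matches to GGGNNNNNCC overlap in H2-K1, stood in 10 of 32851 promoter windows (0.0304%), AANNGAAA in 23.9% and GGGNNNNNCC in 50.8%, with both strands searched. The 10 windows belong to 9 gene symbols, H2-K1 and H2-D1 among them. Because the 11 bases were defined from the H2-K1 window, their presence there was given, and their rarity is a description.

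The second set shows a pair of short elements at a fixed spacing in the same 3 genes. Capitals mark TGACG, a pattern of CREB and ATF sites, and ATTGG, a pattern of NF-Y sites, with 20 bases between them. The H2-K1 stretch is chr17:34000359-34000388, minus strand, the H2-D1 stretch is chr17:35262993-35263022, plus strand, and the B2m stretch is chr2:122147609-122147638, plus strand.
H2-K1: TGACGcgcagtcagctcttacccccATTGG
H2-D1: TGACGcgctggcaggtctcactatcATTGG
B2m: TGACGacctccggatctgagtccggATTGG

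The stretches of H2-K1 and H2-D1 were identical at 23 of 30 bases and those of H2-K1 and B2m at 13 of 30. TGACG alone stood in 20.8% of all windows and ATTGG alone in 37.4%, on either strand. The pair at this spacing stood in 31 windows (0.0944%), which belong to 27 gene symbols, among them the class I gene H2-M3. The spacing was chosen after these windows were seen, so its rarity is a description, and a match is not evidence of a bound factor.

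Tap1 and Psmb9 are shown because they start from a shared stretch of chromosome 17 in opposite directions, with 225 bases between their RefSeq starts. Capitals mark TGACG and GGGNNNNNCC, here matched on both strands, in Tap1 and ATTGG in Psmb9. The Tap1 stretch is chr17:34187470-34187499, plus strand, and the Psmb9 stretch is chr17:34187324-34187353, minus strand.
Tap1: TGACGacagaGGGTCCTGCCCtcaatctgg
Psmb9: cgcgcgcagccgctgATTGGaaagccgagc

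In the other windows, ATTGG was found in Tapbp. None of the 6 patterns given above was found in the Psmb8 and Psmb10 windows, which says only that those letters are not in those 300 bases. A further pattern that was searched, TTCNNNGAA, was found in the Psmb8 window, at -97 to -89 from the start. It stood in 8.30% of all windows.

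On build mm10 with GENCODE M21 annotation, 7 of the 10 genes lie on chromosome 17, in or beside the mouse MHC. H2-K1 spans 33996017 to 34000347 on the minus strand and Tapbp 33915899 to 33929292 on the plus strand. Psmb9 (34181987 to 34187764, minus strand), Tap1 (34187553 to 34197225, plus strand), Psmb8 (34197721 to 34201454, plus strand) and Tap2 (34203527 to 34216321, plus strand) follow one another within 34335 bases. H2-D1 (35262730 to 35267499, plus strand) lies 1262382 bases from H2-K1. B2m is on chromosome 2 (122147686 to 122153083, plus strand). Nlrc5 (94434356 to 94527272, plus strand) and Psmb10 (105935735 to 105938444, minus strand) are both on chromosome 8.

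Reads assigned to genes numbered 28419259 to 31959927 per library, and 10 or more expected counts were present on average in 17190 genes. All 7 Treg markers listed (Foxp3, Il2ra, Ctla4, Ikzf2, Tnfrsf18, Cd4 and Cd3e) were detected in the 3 libraries. Library 1 stood apart in its erythroid markers, whose summed level was 14042 TPM, against 1180 and 811 TPM in libraries 2 and 3.

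The genes of class I presentation were abundant in these cells. TPM is a transcript abundance scaled for transcript length and to a fixed total, as the authors deposited it. In libraries 1, 2 and 3 the 10 genes together held 27446, 24501 and 22783 TPM, and took 1.91%, 1.68% and 1.68% of the reads assigned to genes. All 10 were detected at 1 TPM or more in every library, as were 48.1% of 22028 protein-coding genes. The median of their 10 mean levels was 511 TPM.

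H2-K1, which encodes the K heavy chain, had 11888, 11323 and 9686 TPM in libraries 1, 2 and 3, with a mean of 10966 ± 1143 TPM (SD, n = 3). It ranked 1 of all genes in libraries 1 and 2 and 2 in library 3. Only Tmsb4x, which encodes an actin-binding thymosin, had a higher mean level. H2-D1, the D heavy chain gene, had 5692, 4949 and 3709 TPM in the same order, with a mean of 4783 ± 1002 TPM. It was high in library 1 and low in library 3, and its ranks among all genes were 5, 6 and 15. B2m, which encodes the light chain shared by all class I molecules of this kind, had 6157, 5223 and 6047 TPM, with a mean of 5809 ± 510 TPM. B2m was low in library 2 and close in the other libraries.

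**Figure D1:**
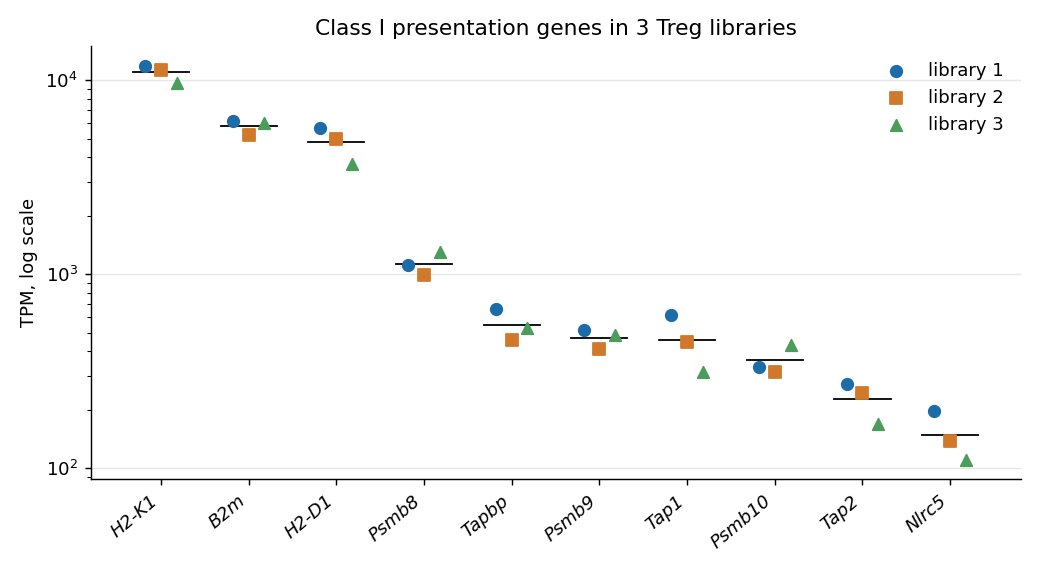
TPM of each of the 10 genes in library 1 (circles), library 2 (squares) and library 3 (triangles), on a log axis, with a line at the mean of the 3 libraries. H2-K1, B2m and H2-D1 lie between 3709 and 11888 TPM, above the other 7 genes, which lie between 111 and 1302 TPM.

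The K heavy chain exceeded the D heavy chain by 1.21 ± 0.16 on the log2 TPM scale, a 2.32-fold difference that was larger than the spread between libraries (log2 1.06, 1.19 and 1.38). Here and below, 1 TPM was added to each level, and "larger than the spread" means 1 sign in all libraries and a mean above 2 SD. An exact sign-flip test over 3 libraries cannot give a p below 0.25, so none was used. The size of this difference changed with the scale. In a smaller deposited gene table, in which high counts are compressed, it was 1.2 ± 0.047. Here and below, levels in that table are its counts divided by effective length. The counts themselves were close (H2-K1 2383, 2387 and 2417, H2-D1 2163, 2155 and 2155), so most of that ratio came from the lengths, 820 and 1697 bases. In reads per kilobase of the longest coding transcript the difference was 0.54 ± 0.20, also larger than the spread. Over protein-coding transcripts alone it was 0.05 ± 0.20, which is not larger than the spread. B2m was 0.92 ± 0.22 below H2-K1 on the log2 TPM scale, but 0.29 ± 0.24 above it over protein-coding transcripts alone, which is within 2 SD. Against H2-D1, B2m differed by 0.30 ± 0.35, less than the spread. In the smaller gene table the value was -0.27 ± 0.0080, of the other sign. There B2m had 853, 858 and 859 counts in libraries 1, 2 and 3, against 94743, 74534 and 109156 expected counts. Compressed counts hardly vary between libraries, so that small SD does not measure the spread and the ratio does not settle the order.

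H2-K1 and H2-D1 together made up most class I heavy chain RNA. Of the summed TPM of these 2 genes and the 21 other class I heavy chain and class I-like genes measured, H2-K1 held 58.4 ± 1.34% and H2-D1 25.3 ± 2.35%. The 6 H2-Q genes held 9.75 ± 1.01%, the 5 H2-T genes 4.96 ± 0.86% and the other 10 genes 1.60 ± 0.087%. In shares of reads, which are not scaled for length, H2-K1 held 39.4 ± 2.13% and H2-D1 35.2 ± 3.11%, a difference that changed sign in library 1, where H2-D1 held 38.04% and H2-K1 36.9%. These genes share sequence with each other. Of the 50-base stretches of the longest coding H2-K1 transcript, H2-K1-201, 8.79% also occurred in another gene, most often H2-D1. Of those of H2-D1-202, 14.3% did, most often in H2-Q1. Such sharing was not particular to the heavy chains. It was highest of the 10 genes in Tapbp-201, at 21.02%, and was 12.58% in Tap2-201 and 12.51% in Psmb9-204. It was 6.47% in Tap1-206, 5.83% in Psmb8-201 and 0 in B2m, Nlrc5 and Psmb10. The split among the heavy chain genes depends on how the authors' estimate divided shared reads.

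The immunoproteasome subunit genes exceeded their constitutive counterparts in TPM. Psmb8 encodes the chymotrypsin-like subunit beta-5i, which takes the place of the Psmb5 product. Psmb8 had 1110, 991 and 1302 TPM in libraries 1, 2 and 3 (mean 1134 ± 157 TPM), and Psmb5 had a mean of 187 ± 12.9 TPM. Their log2 ratio was 2.65, 2.43 and 2.69, a 6.02-fold difference that was larger than the spread (2.59 ± 0.14). Psmb8 thus made up 85.8 ± 1.19% of the TPM of the pair.

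Psmb10 encodes beta-2i, the trypsin-like subunit that replaces the Psmb7 product. It had 331, 315 and 433 TPM in libraries 1, 2 and 3 (mean 360 ± 64.0 TPM), and Psmb7 had 114 ± 11.4 TPM. The log2 ratio was 1.64 ± 0.19, and Psmb10 made up 75.8 ± 2.39% of the pair. Psmb9 encodes beta-1i, which replaces the caspase-like subunit encoded by Psmb6. Psmb9 had 518, 410.5 and 485 TPM (mean 471 ± 55.2 TPM), and Psmb6 had 277 ± 28.2 TPM. The log2 ratio of 0.76 ± 0.085 was the smallest of the 3 and also larger than the spread, with Psmb9 at 62.9 ± 1.38% of the pair.

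Over protein-coding transcripts alone, only the Psmb8 pair kept its direction beyond the spread, at 1.69 ± 0.19 on the log2 scale. The Psmb10 to Psmb7 ratio reversed, to -0.55 ± 0.26, and the Psmb9 to Psmb6 ratio was -0.19 ± 0.18, which is within 2 SD. In reads per kilobase of the longest coding transcript, all 3 inducible genes were above their counterparts beyond the spread, with shares of 78.5%, 55.8% and 64.7% for Psmb8, Psmb9 and Psmb10. Among the inducible genes, Psmb8 exceeded Psmb9 by 1.26 ± 0.16 on the log2 TPM scale, and Psmb10 differed from Psmb9 by -0.40 ± 0.24, less than 2 SD. The latter ratio depended on the scale in size and sign. It was -1.46 ± 0.37 over protein-coding transcripts, beyond 2 SD. In the smaller gene table, where high counts are compressed, it was 0.53 ± 0.079.

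**Figure D2:**
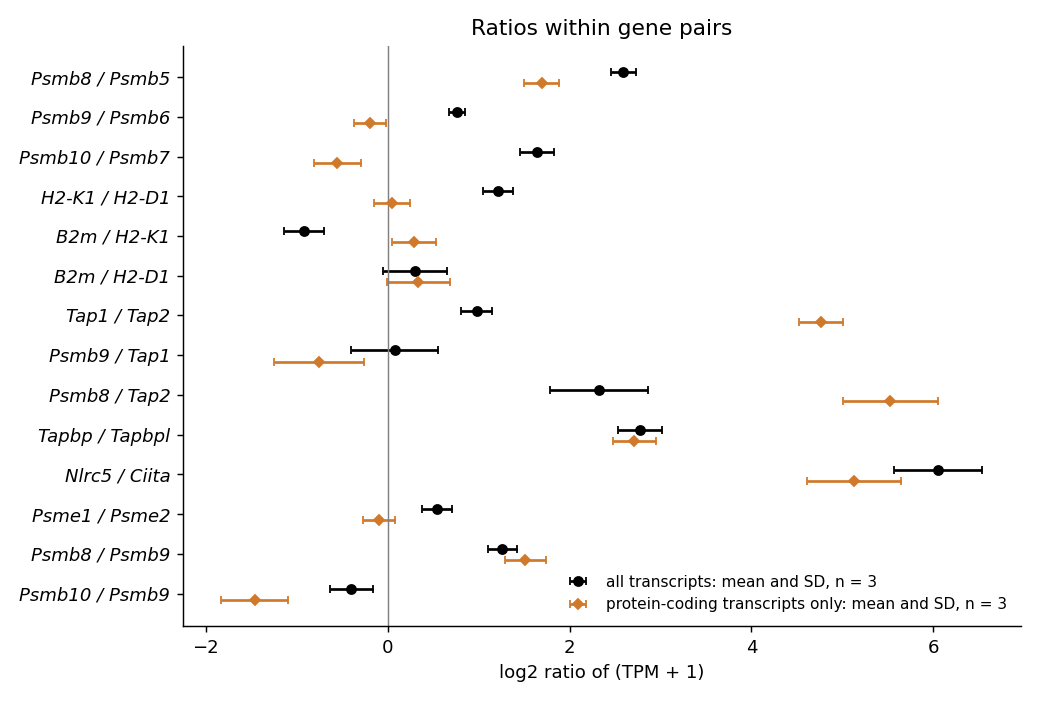
Log2 ratios of (TPM + 1) within 14 gene pairs, as the mean and SD of 3 libraries, over all transcripts of a gene (black circles) and over its protein-coding transcripts only (orange diamonds); 0 is equal level. The Psmb10 to Psmb7 ratio lies at 1.64 over all transcripts and at -0.55 over protein-coding ones, while Tapbp to Tapbpl lies at 2.78 and 2.71.

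Tap1 and Tap2 encode the partner subunits of the peptide transporter. Tap1 had 618, 449.5 and 314 TPM in libraries 1, 2 and 3 (mean 460 ± 152 TPM), a 1.97-fold range and the widest of the 10 genes in TPM. Tap2 had 272, 245 and 168 TPM (mean 229 ± 53.9 TPM). Both were highest in library 1 and lowest in library 3. Tap1 exceeded Tap2 by 0.98 ± 0.17 on the log2 TPM scale, larger than the spread. The ratio was 4.77 ± 0.24 over protein-coding transcripts alone, where Tap2 kept 12.3 ± 2.7 TPM, and 0.47 ± 0.049 in the smaller gene table.

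Tapbp encodes tapasin, which holds empty class I molecules at the transporter. It had 663, 458 and 529 TPM in libraries 1, 2 and 3 (mean 550 ± 104 TPM). Tapbp exceeded Tapbpl, which encodes the related peptide editor TAPBPR, by 2.78 ± 0.24 on the log2 TPM scale, a 6.86-fold difference. Over protein-coding transcripts alone it was 2.71 ± 0.24, so the pair differed by about the same amount on both scales.

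Nlrc5, the regulator of class I transcription, had the lowest mean TPM of the 10 genes over all transcripts. Over protein-coding transcripts alone it had 69.7 ± 25.2 TPM and Tap2 was the lowest. It had 197, 138 and 111 TPM in libraries 1, 2 and 3 (mean 149 ± 44.3 TPM), and like Tap1 and Tap2 it was highest in library 1 and lowest in library 3. Ciita, the related regulator of class II genes, had 1.82, 0.55 and 1.42 TPM, and passed the detection level in 2 of the 3 libraries. Nlrc5 exceeded Ciita by 6.05 ± 0.49 on the log2 scale with 1 TPM added, which understates the change of a gene this low.

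In order of mean TPM the genes were H2-K1, B2m, H2-D1, Psmb8, Tapbp, Psmb9, Tap1, Psmb10, Tap2 and Nlrc5. Of the 9 neighbouring pairs in that order, H2-K1 and B2m, H2-D1 and Psmb8, and Psmb8 and Tapbp differed by more than the spread and did not overlap between libraries. Tap2 and Nlrc5 overlapped in range, yet Tap2 was the higher in each library by more than the spread; over protein-coding transcripts alone Nlrc5 was the higher in each library. The other 5 neighbouring pairs did not differ by more than 2 SD, so neighbours among Tapbp, Psmb9, Tap1 and Psmb10 have no firm order. Only neighbours were compared here. Tapbp, at 458 TPM or more in each library, lay above Psmb10, at 433 TPM or less.

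For many of these genes, much of the RNA was assigned to transcripts that the annotation does not call protein-coding. Retained-intron transcripts, which keep sequence that the coding transcript removes, took 94.05 ± 0.48% of the TPM of Tap2, 70.3 ± 6.56% of Psmb10, 56.1 ± 1.75% of H2-K1, 46.3 ± 2.05% of Psmb8, 23.4 ± 5.41% of Nlrc5, 21.3 ± 2.12% of Psmb9 and 19.4 ± 1.89% of Tap1. They took 2.76 ± 0.21% of H2-D1 and 2.24 ± 0.28% of Tapbp. B2m has 1 annotated transcript, the coding B2m-201. A share of 50% or more of TPM was thus reached by 3 of the 9 genes with such a transcript, against 8.47% of the 6491 detected protein-coding genes that have one, whose median share was 13.1%. Which genes reach it depends on length scaling. By reads the share was 93.1% for Tap2, 60.0% for Psmb8, 59.6% for Psmb10 and 38.8% for H2-K1. Protein-coding transcripts held 61.0% of the H2-K1 reads and 85.8% of the Nlrc5 reads.

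**Figure D3:**
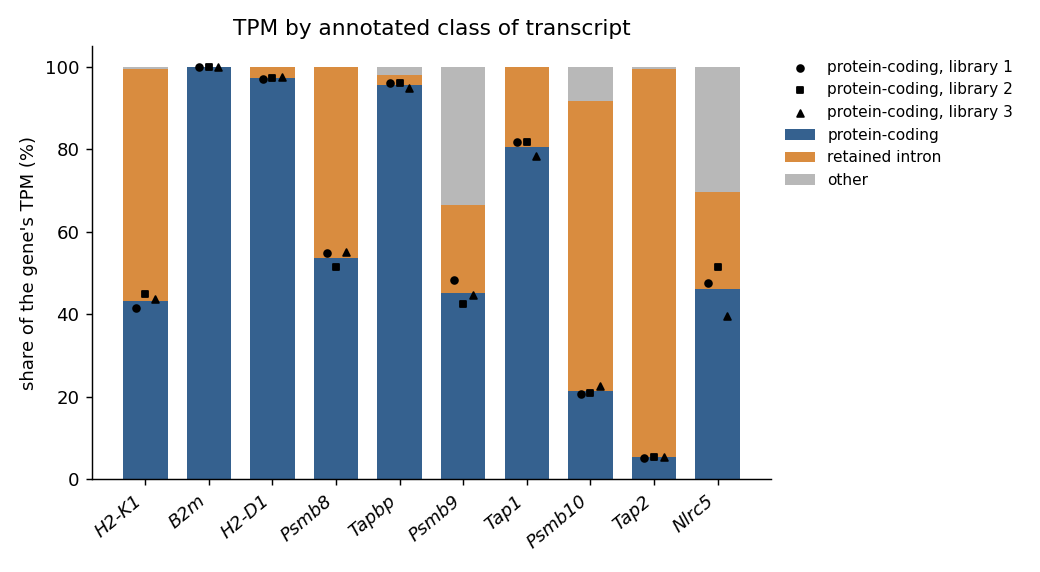
Share of the TPM of each gene (%) on transcripts annotated as protein-coding (blue), retained intron (orange) and other (grey), as means of 3 libraries; points give the protein-coding share in each library. B2m, H2-D1 and Tapbp lie at 95.6% or more protein-coding, Tap2 at 5.41%.

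Tap2 was the extreme of the 10. Tap2-202, a retained-intron transcript of 2561 bases, held 94.0%, 94.6% and 93.6% of the Tap2 TPM in libraries 1, 2 and 3, and the coding Tap2-201 held 5.12 ± 0.38%. By expected counts the share of Tap2-202 was 93.1 ± 0.51%, about the same without scaling for length. Tap2-202 lies over the exons of Tap2-201 for 2399 bases and over its introns for 162 bases. Of the 6491 genes, 34 (0.524%) had a retained-intron share at or above that of Tap2.

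H2-K1 was split over many transcripts. H2-K1-215, a retained-intron transcript of 457 bases, took the largest TPM share, 25.7 ± 1.17%, but 12.8 ± 0.52% of the reads. Of its 457 bases, 437 lie in exons of the coding H2-K1-201 and 20 in an intron. The coding H2-K1-205 held 16.3 ± 0.82% of the TPM and 30.3% of the reads, the largest share of the reads. The retained-intron H2-K1-213 and H2-K1-214 held 15.3 ± 1.58% and 11.0 ± 1.19% of the TPM, and the coding H2-K1-202, H2-K1-201 and H2-K1-211 held 9.28 ± 0.34%, 7.80 ± 1.82% and 6.24 ± 1.10%. H2-D1, its close relative, had 1 leading transcript: the coding H2-D1-202 held 78.6 ± 0.87% of the TPM and 95.1% of the reads, followed by the coding H2-D1-203 at 14.4 ± 1.04% of the TPM.

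In Psmb8 the retained-intron transcript Psmb8-205 (41.5 ± 1.5% of TPM) and the coding Psmb8-203 (39.1 ± 0.76%) were the largest, and the coding Psmb8-204 held 13.3 ± 2.30%. In Psmb9 the largest share, 33.6 ± 3.49%, fell on Psmb9-207, annotated as a target of nonsense-mediated decay, and the short coding Psmb9-202 held 29.4 ± 2.60%. The coding Psmb9-204 held 15.1 ± 0.41%, and the retained-intron Psmb9-205 and Psmb9-201 held 12.7 ± 1.08% and 7.21 ± 0.63%. In Psmb10 the retained-intron transcript Psmb10-205 held 43.6 ± 6.53% and the only coding transcript, Psmb10-201, 21.4 ± 1.12%. The retained-intron transcript Psmb10-204 held 19.3 ± 0.70%. Psmb10-205 was at 50.6%, 37.7% and 42.4% in libraries 1, 2 and 3, and the noncoding Psmb10-203 at 1.84%, 14.1% and 9.03%. For Psmb10-203 in library 1 the authors' posterior SD, in reads, was 147% of the expected count, so that its share there is poorly determined.

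Tap1 was divided between the coding Tap1-201 (42.9 ± 2.85%) and Tap1-206 (33.1 ± 3.26%), with 7.59 ± 1.38% on the retained-intron Tap1-204. The coding Tapbp-206 and Tapbp-201 held 86.2 ± 1.42% and 9.42 ± 2.09% of Tapbp. Nlrc5-207, the coding transcript of 7578 bases and 53 exons, held 36.9 ± 4.06% of the TPM but 74.7% of the reads, and Nlrc5-208, a noncoding model of 557 bases, held 27.2 ± 1.69% of the TPM but 3.75% of the reads. The retained-intron Nlrc5-203 held 20.99 ± 4.66% of the TPM and the coding Nlrc5-204 9.29 ± 2.17%. These are estimates from reads that several transcripts share, and the short transcripts overlap exons of the coding ones. Levels built on them, such as the ratios over protein-coding transcripts, carry that uncertainty.

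Between the 3 libraries, all 10 genes differed by more than counting error. The rounded expected counts were compared with the library sizes by a chi-square test with 2 degrees of freedom, and all 10 passed with a Benjamini-Hochberg adjusted p of at most 7.62e-62. The threshold of 0.05 was passed by 80.0% of the 17190 genes tested. At this depth most genes pass, so the count for the 10 genes is not particular to them. The test compares libraries, not conditions. When the spread common to all genes (edgeR common dispersion, a coefficient of variation of 0.375) was added to the counting error, 0 of the 10 passed, 0 had an unadjusted p under 0.05, and 569 of 17190 genes passed. The median ratio of the highest to the lowest library in CPM, read counts scaled by library size but not by length, was 1.43 for the 10 genes and 1.48 for all tested genes.

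In CPM each of the genes was highest in library 1 or in library 3. Of the 10 genes, 6 passed and were highest in library 1 (H2-K1, H2-D1, Tapbp, Tap1, Tap2 and Nlrc5), where 25.3% of tested genes did the same. The other 4 (B2m, Psmb8, Psmb9 and Psmb10) were highest in library 3, as were 31.4% of tested genes, and none was highest in library 2, where 23.3% were. The split changed with the scaling: in TPM, B2m and Psmb9 were highest in library 1, which left Psmb8 and Psmb10 highest in library 3, and with DESeq2 size factors H2-K1 was highest in library 2. In library 3, H2-K1, H2-D1, Tap1, Tap2 and Nlrc5 had their lowest CPM, as did 31.4% of tested genes. The other 5, Tapbp among them, were lowest in library 2, as were 23.8%.

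The widest differences were those of Nlrc5 and Tap1 on one side and Psmb10 on the other. The log2 CPM of Nlrc5 lay 0.64 above the mean of the other 2 in library 1, -0.01 from it in library 2 and 0.63 below it (-0.63) in library 3. For Tap1 these differences were 0.57, 0.00 and -0.57, and for Psmb10 they were -0.21, -0.37 and 0.59. H2-K1 differed least, by 0.05, 0.05 and -0.10, and without library 3 it no longer passed the chi-square test (adjusted p = 0.43). Psmb9 no longer passed without library 2 (adjusted p = 0.21).

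The differences between libraries went with transcript length. The 4 genes highest in library 3 have effective lengths of 747 to 947 bases, and of the other 6 only H2-K1, at 820 bases, is that short, the rest running from 1697 bases (H2-D1) to 3719 bases (Nlrc5). Across the 10 genes, Spearman's rho between length and the difference was 0.92 in library 1, 0.33 in library 2 and -0.88 in library 3. Across the 17190 tested genes it was 0.15, 0.17 and -0.25, which is the same sign and much weaker. These are descriptions across genes of the same libraries, and 7 of the 10 genes lie together on chromosome 17. With the length trend of all genes removed, Nlrc5 kept 0.55 in library 1 and -0.63 in library 3, Tap1 0.51 and -0.60, and Psmb10 -0.19 and 0.42. Psmb9 moved from highest in library 3 to highest in library 1. H2-K1 had 0.06, 0.19 and -0.25 in libraries 1, 2 and 3, where the medians of all tested genes were -0.03, 0.11 and -0.05. With a trend in length and GC content removed, Nlrc5 had 0.47 and -0.43, Tap1 0.42 and -0.42, and Psmb10 -0.26 and 0.55. There H2-K1 had -0.41 in library 3, and Psmb9 was highest in library 3. B2m had 0.16, -0.03 and -0.13 in libraries 1, 2 and 3, where the medians of all tested genes were -0.03, 0.11 and -0.06. Because these medians are not at 0, the lowest library of B2m is not settled here. Nor is the highest library of H2-K1 with the length trend removed.

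**Figure D4:**
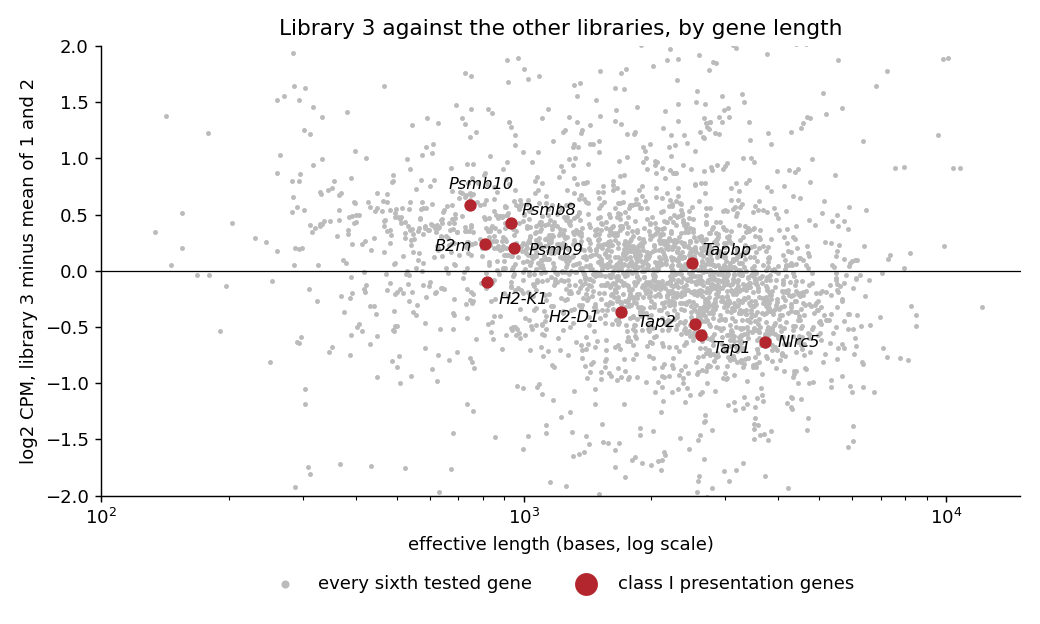
Difference in log2 CPM between library 3 and the mean of libraries 1 and 2, by effective length (bases, log axis), for the 10 genes (red) and for every sixth tested gene (grey; 197 of 2865 lie outside the axes). Psmb10, Psmb8, B2m, Psmb9 and Tapbp lie above 0, and H2-D1, Tap2, Tap1 and Nlrc5 lie at -0.37 to -0.63.

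In the smaller gene table the differences between libraries were smaller and 3 of the 10 genes passed the test (Tap1, Tap2 and Nlrc5), against 65.3% of 11992 genes. High counts are compressed there, so an abundant gene has little room to differ. H2-D1 had 2163, 2155 and 2155 counts in libraries 1, 2 and 3, against 184860, 146428 and 140138 expected counts. Not passing there therefore does not show a stable level, and the count cannot be set against the share of all genes. Nlrc5, which differed most there too, was again highest in library 1 (0.43) and lowest in library 3 (-0.47). For Tap1 and Tap2 library 3 was again lowest, but library 2 was the highest there.

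The other genes of the pathway were counted from lists by role. For comparison, of 17168 tested genes counted by symbol, 13729 passed the chi-square test. Whether or not they passed, 5410, 5059 and 6699 of them were highest in CPM in libraries 1, 2 and 3, and 5309 were lowest in library 2. Of the 21 class Ib and other class I heavy chain genes, 14 were detected, and of 18 tested 16 passed the chi-square test. H2-Q7, which encodes a Qa-2 molecule, was the highest at 1262 ± 101 TPM, followed by H2-T23 (593 ± 47.4 TPM), which encodes Qa-1, H2-Q6 (462 ± 140 TPM) and H2-T22 (261 ± 13.5 TPM). H2-M9 and H2-M10.1 were near 0, at 0.087 and 0.017 TPM. All 13 genes of the loading complex and of folding in the endoplasmic reticulum were detected and passed, with a median of 161 TPM. Among them were the disulfide isomerase gene Pdia3 (461 ± 31.0 TPM), the chaperone genes Hspa5 (323 ± 19.5 TPM) and Calr (294 ± 37.2 TPM), and Bcap31 (229 ± 29.0 TPM), with Prkcsh and Uggt1 the lowest at 69.2 and 66.5 TPM. The mean level of Tapbp was above that of each of these 13.

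Cytosolic peptidases and chaperones were all detected, 9 of 9, and passed, led by the chaperone genes Hspa8 (1227 ± 112 TPM), Hsp90ab1 (404 ± 10.9 TPM) and Hsp90aa1 (229 ± 4.39 TPM), and by Cct2 (189 ± 12.8 TPM). The peptidase genes Lap3 and Thop1 were the lowest, at 24.7 and 6.26 TPM. Of the 10 genes of proteasome activators and assembly, 10 passed and 8 were highest in library 3, as were 6699 of the 17168 tested genes. Psme1 and Psme2, which encode the interferon-inducible PA28 activator, had 918 ± 151 and 640 ± 182 TPM, and Psme1 exceeded Psme2 by 0.54 ± 0.17 on the log2 scale, though by -0.09 ± 0.17 over protein-coding transcripts alone. Pomp, an assembly factor gene, had 330 ± 31.6 TPM and Psme3 162 ± 1.57 TPM, and Psmg3 and Psme4 were the lowest at 41.1 and 20.2 TPM.

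In the constitutive 20S core, library 3 was the highest in CPM throughout. All 14 genes were detected, with a median of 275 TPM, and 13 passed the test. In CPM, 14 were highest in library 3, as were 6699 of the 17168 tested genes. For 11 of the 14 genes library 2 was lowest, as it was for 5309 of the 17168. Psma7 (414 ± 28.0 TPM), Psmb3 (402 ± 13.7 TPM, not past the test), Psmb4 (333 ± 16.2 TPM) and Psma6 (311 ± 20.02 TPM) were the highest, and Psma5 and Psmb7 the lowest at 138 and 114 TPM. In CPM, Psmb8, Psmb9, Psmb10 and B2m also had library 3 highest and library 2 lowest, an order that Psmb9 and B2m lost in TPM. The median difference of library 3 from the others in log2 CPM was 0.29 in the constitutive core list.

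Of the 33 regulators of class I transcription, all passed and 32 were detected. Jak1 (411 ± 45.6 TPM), Irf1 (353 ± 64.7 TPM) and Ifngr1 (350 ± 174 TPM), which are parts of the interferon-gamma pathway, were among the highest. Nfya and Ciita were the lowest, at 4.04 and 1.26 TPM. By library they had no single pattern, with 13 highest in library 1, 13 in library 2 and 7 in library 3. Of the 17168 tested genes, 6699 were highest in library 3 and 5309 lowest in library 2. Of the 22 interferon-response genes, 19 were detected, 22 passed, 13 were highest in library 3 and 19 lowest in library 2. Among the highest were Igtp (452 ± 94.2 TPM), Zbp1 (208 ± 49.0 TPM) and Irgm1 (161 ± 30.8 TPM), and Oas2 and Ifi44 were the lowest at 1.2 and 0.52 TPM.

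The genes whose profile over the 3 libraries was most like the median profile of the 10 genes were sought in these lists by the distance between log2 CPM profiles. They were Lap3 (distance 0.068), H2-M3 (0.068) and H2-Q7 (0.10), over 3 libraries. Between 192 and 457 of the 17190 tested genes were as near, or 1.12% to 2.66%, so this likeness is not rare.

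Markers of other cell types moved between the libraries beside these genes. Of the 10 class II presentation genes, 9 were detected, 10 passed and 9 were lowest in library 2, as were 5309 of the 17168 tested genes. Cd74, the invariant chain gene, had 460, 138 and 301 TPM. Among H2-DMa (288 ± 50.2 TPM), H2-Ab1 (77.5 ± 54.1 TPM), H2-Aa (68.3 ± 46.2 TPM) and H2-Ob (14.3 ± 4.81 TPM), only H2-Ob was not lowest in library 2. B cell markers (4 of 8 detected, Cd79b the highest at 32.2 ± 5.59 TPM) summed to 45.0, 41.2 and 69.4 TPM in libraries 1, 2 and 3. Dendritic cell markers (0 of 8 detected in all libraries) summed to 8.88, 3.45 and 5.30 TPM. Monocyte and macrophage markers (6 of 8, Lyz2 the highest at 47.4 ± 21.4 TPM) summed to 216, 89.5 and 106 TPM, and CD8 T and NK markers (5 of 7, with Ncr1 at 0 reads in all libraries) to 40.5, 30.2 and 40.6 TPM. The erythroid list (7 of 8) was highest in library 1 for all 8 of its genes. The part of these cells in the levels of the class I genes was not tested. In bulk RNA, fewer cells of a type and less RNA per cell cannot be told apart.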

How the data were processed

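Polyadenylated RNA-seq tables of 3 libraries in 1 group were used, 1 file per library. The members and lists were chosen with earlier results of these data known. Expected counts as deposited are the authors' estimated counts of reads per gene or transcript on mm10 with GENCODE M21, in RSEM's column layout per the file headers. For the program, the aligner and the strand setting, the sources used here give no name. TPM and FPKM as deposited were scaled by the authors for length and total. The posterior mean columns are the authors' second estimate, and their posterior SD, in reads, is deposited beside it. The authors also deposited a smaller table of whole counts on GENCODE M4 genes, compressed at high counts and used as an alternative only. For levels and ratios, its counts were divided by the effective length of the gene on GENCODE M21.

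Other entries (spike-in and transfer RNA), left out of library sizes and tests, held 0.166% to 0.229% of reads. Expected counts were rounded and compared by a chi-square test with TMM library sizes (edgeR 4.0.16, R 4.3.3) for the 17190 genes averaging at least 10 reads, with Benjamini-Hochberg adjustment and a threshold of 0.05. Differences use log2 CPM with 0.5 added. A gene at 0 reads could hold up to 3 reads, and such limits cover counting error only. Transcript shares are percents of a gene's summed TPM. Genes named are the 10 members, both genes of each pair, the 4 highest and 2 lowest of each list, leading and defining markers, transcripts at a mean share of 5% or more, and the 3 list genes nearest in profile; Tmsb4x was named after its value was seen. A gene that the rule names is not reported here, though list counts include it. H2-T9 and Nrdc were not matched to a symbol. Alternatives covered DESeq2 1.42.0 size factors, filters, pseudocounts, units, length and GC trends and each library left out. The scales, protein-coding transcripts only and reads per kilobase of the longest coding transcript, were added after seeing the data. The chi-square test and the differences in log2 CPM were tested on simulated Poisson counts, which hold no spread beyond counting error. The other procedures were not tested in this way. Python 3.11.15, numpy 2.4.6, pandas 2.3.3 and scipy 1.17.1 were used.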

Additional observations from a re-analysis of the deposited data

How the results depend on the processing

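No paired analysis was possible because there is 1 group. Detection of the 10 genes was the same in all alternatives run. By level, 2 of the 10 genes kept their rank in the smaller gene table and 4 over protein-coding transcripts alone. In reads per kilobase of the longest coding transcript 8 did. With FPKM 10 did, which is nearly given, because FPKM and TPM differ by a common factor within a library. Between libraries, 3 of the 10 genes differed in the smaller table, which compresses high counts, and 0 with the common dispersion added. Leaving out each library in turn gave 9 to 10. The number of genes above the mean of the other libraries was 8, 4 and 5 in libraries 1, 2 and 3, and 4, 8 and 1 in the smaller table; with total reads only it was 2 in library 2. Among the ratios larger than the spread, 5 values reversed: in the smaller table Psmb9 to Psmb6 was -0.094, and over protein-coding transcripts it was -0.19, Psmb10 to Psmb7 -0.55, Psme1 to Psme2 -0.094 and B2m to H2-K1 0.29. Of the ratios within the spread, B2m to H2-D1 (-0.27), Psmb10 to Psmb9 (0.53) and Psmb9 to Tap1 (-0.18) also changed sign in the smaller table. High counts are compressed there, so its ratios partly follow the lengths. Psmb9 to Tap1 also changed sign over protein-coding transcripts (-0.76), in reads per kilobase (-0.26) and without library 3 (-0.19). The pairs called larger than the spread numbered 11 of 14, 8 over protein-coding transcripts and 11 to 14 with a library left out. In these, fewer transcripts or samples enter the value; otherwise the cause was not tested. Short transcripts that overlap coding exons limit the TPM of H2-K1, Psmb8, Psmb9, Psmb10 and Nlrc5, and sequence shared with other genes limits the split between H2-K1 and H2-D1. Tapbp, Tap2 and Psmb9 also share sequence with other genes, and its effect on their levels was not tested. Tap1 and Psmb9 overlap by 212 bases on opposite strands, and reads there cannot be told apart without strand.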
